A study of Mus musculus with 6 samples.

Results

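H60c is a mouse gene near the start of chromosome 10, and the deposited table of H3K9me3 regions assigns 25 of its 202553 regions to it. H3K9me3, trimethylation of lysine 9 of histone H3, was profiled by CUT&Tag, in which an antibody-tethered transposase tags DNA beside the mark. The tissue was frozen quadriceps femoris muscle, with 3 libraries labelled Prr14-WT (replicates 3, 4 and 8) and 3 labelled Prr14-KO (replicates 4, 5 and 7), the order in which values are listed below. The allele, strain, sex and age are not given in the sources used here, nor is it stated that each library is a separate mouse, so the spread between libraries may be partly technical. The 25 regions were chosen by the symbol the table gives them, and the locus was selected on its high counts, so its level is given below as a description without a test. The genotype difference was not part of that rule.

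H60c encodes a cell-surface protein of the H60 family of minor histocompatibility antigens, which resemble MHC class I molecules. Together with the Rae-1 proteins and Ulbp1, these proteins are ligands of NKG2D, an activating receptor of natural killer cells and some T cells, which signals through the adaptors Hcst and Tyrobp. H3K9me3 marks constitutive heterochromatin, including the satellite repeats next to centromeres, and mouse chromosomes carry their centromere at the end from which assembly coordinates are counted. Prr14 is a nuclear lamina protein and a partner of heterochromatin protein HP1.

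The strong H3K9me3 named for this locus was not at the H60c gene. Of the counts in the 25 regions, 91.3% lay in the first 3 regions, which follow each other within 7164 bp at chr10:3109874-3117037 (GRCm38, positions as the table gives them). Their centres were 151181 to 157591 bp from the start site that the table uses for H60c. The gene itself held 1 region with 1.03% of the counts, and no region overlapped its promoter. The symbol is therefore used here for a set of regions assigned by the table, 24 of them intergenic and 1 annotated as 3'UTR.

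The sequence before the H60c start site is shown because the distances are measured from it and because it overlaps no region of the table. It is a promoter window of 250 bases (GRCm38.p6, chr10:3267772-3268021, minus strand), written 5′ to 3′ with each CG dinucleotide in capitals. The window lies just upstream of the start site used for the distances (position 3267750). It falls inside the RefSeq span of the gene, whose upper coordinate is 3268091.
H60c promoter: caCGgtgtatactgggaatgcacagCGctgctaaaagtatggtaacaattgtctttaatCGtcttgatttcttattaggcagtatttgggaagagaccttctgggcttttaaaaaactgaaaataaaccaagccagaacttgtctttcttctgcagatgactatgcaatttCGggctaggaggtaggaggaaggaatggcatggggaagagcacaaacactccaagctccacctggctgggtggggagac
It holds 4 CG dinucleotides (CG reads the same on both strands), where the median of 32851 RefSeq promoter windows of this length is 6 and 62.2% hold at least as many. The nearest region of the table ended 9131 bp away on the gene side, and the nearest upstream began 7084 bp away.

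The first of the 3 strong regions, at chr10:3109874-3110444 (571 bp), is also the first region of the table on chromosome 10. It held 626, 659 and 731 counts in wild types, and 853, 734 and 898 in knockouts. The second, at chr10:3111448-3115269 (3822 bp), held 2019, 2250 and 2449 counts in wild types and 2678, 2529 and 2766 in knockouts. Each knockout count lay above each wild-type count in both regions.

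The third, at chr10:3116100-3117037 (938 bp), held 1044, 1053 and 1130 counts in wild types and 1343, 1117 and 1310 in knockouts. Here the raw counts of knockout replicate 5 and wild-type replicate 8 crossed, while after scaling to library size the groups did not overlap. The gaps between the 3 regions were 1003 and 830 bp, and the next region began 17197 bp further on.

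By mean count these regions ranked 31 (the second), 60 (the third) and 92 (the first) of all 202553. The second was also the 10th widest of the table. Per kb of region it was the least dense of the 3, with 641 counts per kb against 1314 in the first and 1243 in the third. The median over the whole table was 46.3 counts per kb. RefSeq places no gene over them. The nearest is the pseudogene Gm3318, 768 bp away, followed by the protein-coding gene 9230019H11Rik (2803 bp) and the pseudogene Gm30674 (5031 bp), all far closer than H60c.

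**Figure D1:**
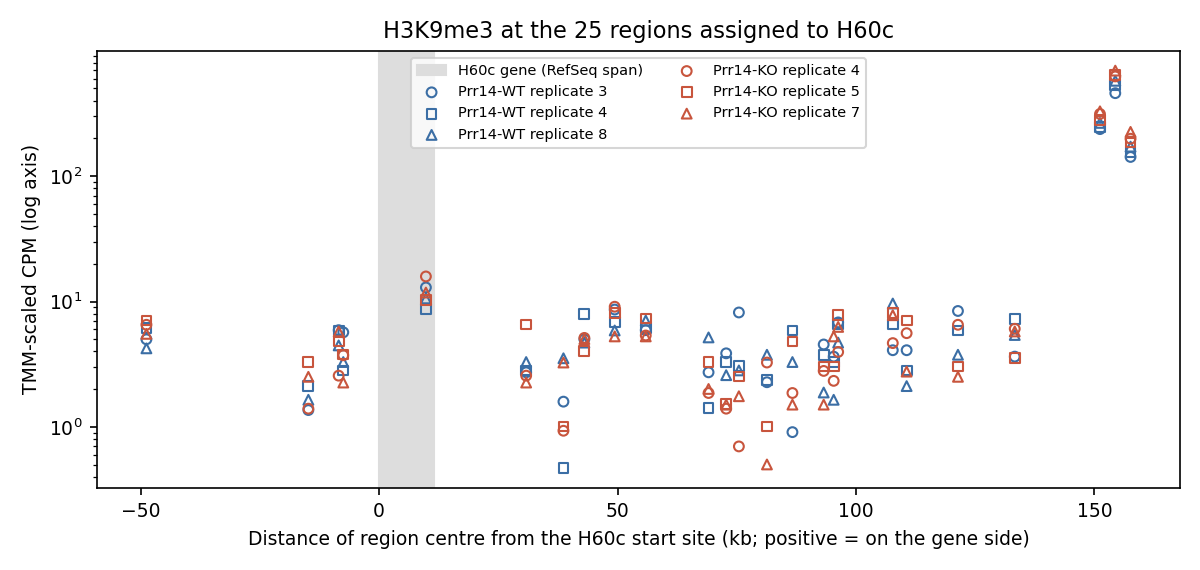
TMM-scaled CPM (counts scaled to library size, log axis) in each of the 6 libraries at the 25 regions, by distance of the region centre from the H60c start site in kb. The 3 regions farthest out on the gene side stand above all others, and the region in the gene (grey) has the highest mean of the remaining 22.

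H3K9me3 counts in the 3 strong regions were higher in each Prr14-KO library than in any Prr14-WT library. In TMM-scaled CPM (counts scaled to library size), their sum was 838, 932 and 1013 in wild types. In knockouts it was 1136, 1105 and 1248. The means were 928 ± 87.7 and 1163 ± 75.3 CPM (SD, n = 3), a ratio of 1.25 and a log2 change of 0.33. The groups did not overlap, and the exact permutation p was 0.10, the smallest that 3 libraries against 3 allow (two-sided). This grouping of 3 regions was made after their values were seen.

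Fitted as single regions among 153789, none of them passed. Their log2 changes were 0.38 (SE 0.13) for the first, 0.32 (SE 0.12) for the second and 0.30 (SE 0.13) for the third, with edgeR adjusted p = 0.998 for each. The unadjusted edgeR p-values were 0.00485, 0.00544 and 0.0179. Limma-voom called the second region (log2 change 0.33, adjusted p = 0.00046) and neither of its neighbours (adjusted p = 0.216 for the first and 0.698 for the third), where it called 0.00845% of all regions. The authors' deposited table gives these regions log2 changes of 0.33, 0.27 and 0.25 with an adjusted p of 1.00 each. The authors' unadjusted p-values were 0.0403, 0.0671 and 0.111, larger than those of edgeR.

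Of the 25 regions, 22 had enough counts to be tested. The others, regions 12, 19 and 24 in order of position, had mean counts of 9.33, 7.50 and 8.50. By edgeR, 0 of the 22 passed an adjusted p of 0.05, where 0.013% of all tested regions did. DESeq2 called 0 and limma-voom 1. Without adjustment 4 of the 22 had an edgeR p under 0.05, the 3 strong regions and region 13 described below, where the share over the table was 3.84%. In 3 regions all knockouts lay above all wild types, where 4.68% of tested regions did so. In 2 regions all knockouts lay below all wild types, where 4.93% did so. The 3 strong regions adjoin within 7164 bp and differed in the same direction, so they are not 3 separate cases beside these shares. Their standard errors, 0.12 to 0.13, were also well under the median of 0.43 of the other tested H60c regions.

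**Figure D2:**
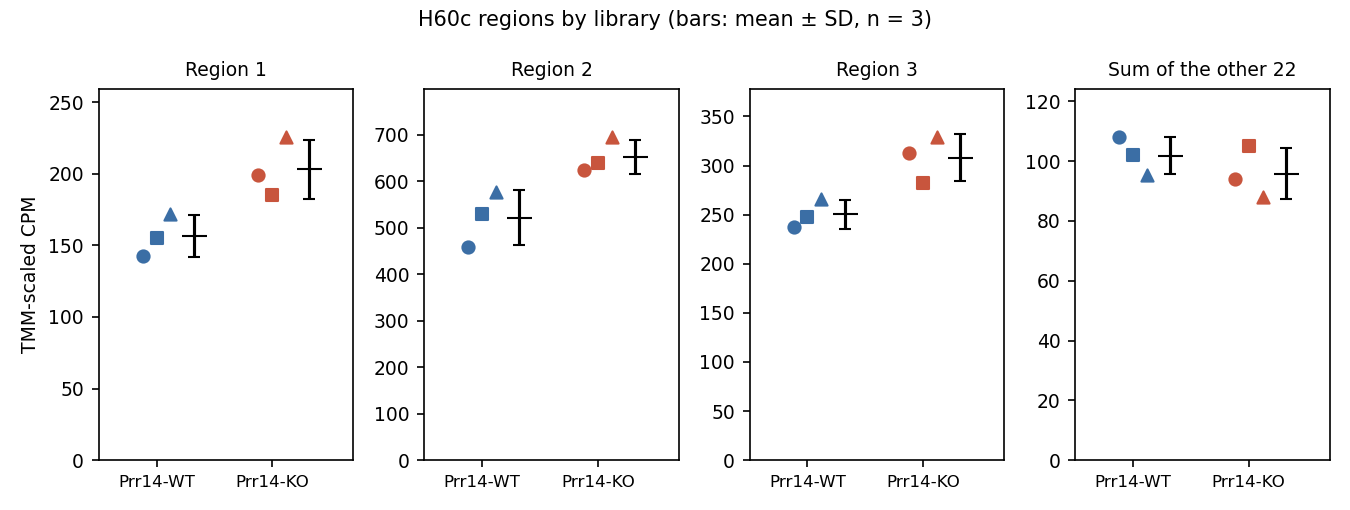
TMM-scaled CPM of each library at the 3 strong regions and summed over the other 22, with the mean and SD of each genotype (n = 3). In the 3 strong regions all knockout points lie above all wild-type points, while in the sum of the others (102 against 95.7 CPM) the groups overlap.

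The proportions among the 3 regions did not differ beyond the spread between libraries. The second held 56.1% ± 1.20 of their joint counts in wild types and 56.1% ± 1.46 in knockouts (SD, n = 3; exact permutation p = 1.00). The share of all counts of the 25 regions in the second region alone was 48.5%, 51.2% and 51.9% in wild types. It was 50.7%, 52.7% and 51.9% in knockouts. The groups overlapped, with a difference of 1.27 percentage points (exact permutation p = 0.40). It was 0.248 without wild-type replicate 3, 0.808 without knockout replicate 5 and 1.97 without wild-type replicate 8. Counting error was 1.42% to 1.65% of the sum of the 3 in a library, well under the spread between libraries (9.45% of the mean in wild types and 6.48% in knockouts).

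The mitochondrial share of the counts, which differed between libraries, was 0.174%, 0.189% and 0.366% in wild types and 0.146%, 0.248% and 0.612% in knockouts. The library with the largest share was in both genotypes the one with the most counts in the strong regions. In a fit with that share as a covariate, chosen after seeing the data, the log2 changes of the 3 regions were 0.32, 0.28 and 0.27 (edgeR adjusted p = 0.999 each).

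The remaining 22 regions, spread over chr10:3134235-3317007, did not separate the genotypes. They held 475, 434 and 406 counts in wild types and 404, 416 and 351 in knockouts. Scaled, they summed to 102 ± 6.23 and 95.7 ± 8.54 CPM (SD, n = 3), a log2 change of -0.09 (exact permutation p = 0.40), and the groups overlapped. It was -0.03 without knockout replicate 7, -0.05 without wild-type replicate 3 and -0.16 without knockout replicate 5. Among the 19 tested, 7 had a positive and 12 a negative fitted change, with a median of -0.09 beside 0.00 over all tested regions. Their median standard error was 0.43, so changes of the size seen in the strong regions were not detectable at single regions of this depth.

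These 22 were ordinary regions of the table. Their mean counts ran from 7.50 to 49.2 with a median of 16.1, beside a median of 15 over the table. Their median density was 46.9 counts per kb, beside 46.3. By RefSeq, 8 of them lay in the pseudogene Gm6667, 2 in the pseudogene Gm51789, 4 in the long noncoding RNA gene Gm29826 and 1 in H60c, while 7 lay in no gene. A region at chr10:3134235-3134652, the next after the strong ones, held only 16, 31 and 23 counts in wild types and 26, 14 and 23 in knockouts. The fall from the third strong region, at 1166 mean counts, to this one, at 22.2, took place within 17197 bp, with no region of intermediate level.

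Within the Gm6667 pseudogene, 2 neighbouring regions had all knockouts below all wild types. Region 13, at chr10:3192114-3192492, held 36, 13 and 12 counts in wild types and 3, 10 and 7 in knockouts. It had a fitted log2 change of -1.50 (SE 0.58), which did not pass (edgeR adjusted p = 0.998), and without wild-type replicate 3, which holds most of the wild-type counts, it was -0.82. Region 14, at chr10:3194874-3195059, held 17, 14 and 11 counts against 6 in each knockout. Its log2 change of -1.13 (SE 0.72) did not pass either (edgeR adjusted p = 0.998).

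**Figure D3:**
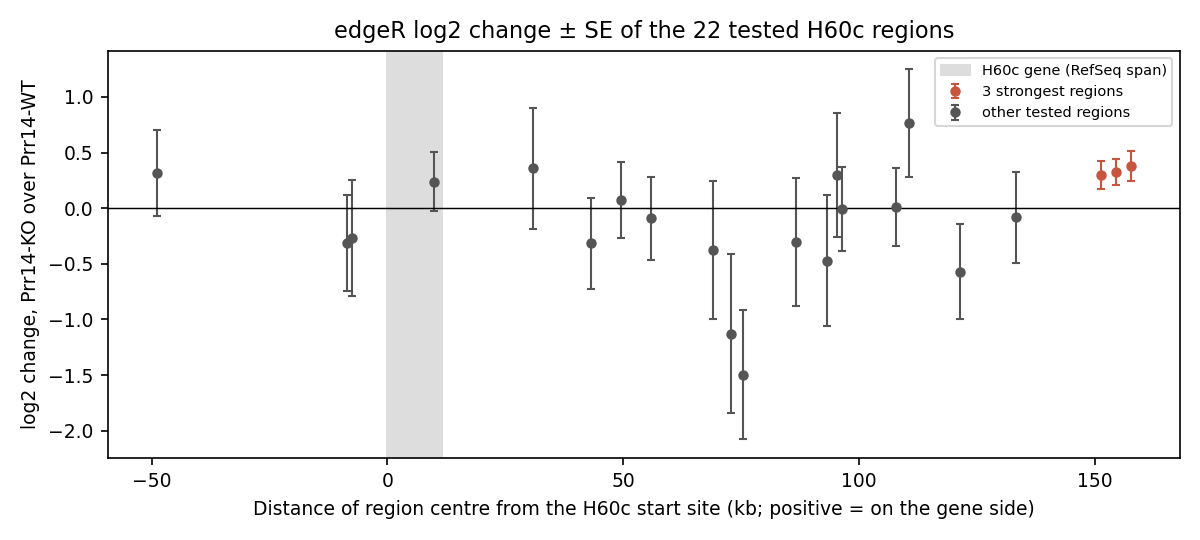
Fitted edgeR log2 change (Prr14-KO over Prr14-WT) ± SE of the 22 tested regions, by distance of the region centre from the H60c start site in kb. The 3 strong regions lie between 0.30 and 0.38 with short error bars, and the 19 others scatter on both sides of 0.

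At the H60c gene (RefSeq span chr10:3256202-3268091), the single region covered chr10:3257256-3258640, 1385 bp that the table annotates as 3'UTR. It held 57, 37 and 45 counts in wild types and 68, 41 and 47 in knockouts. The groups overlapped. The means were 10.7 ± 2.13 and 12.7 ± 2.85 CPM (SD, n = 3), a log2 change of 0.24 with a 95% interval of -0.28 to 0.76 (edgeR adjusted p = 0.998). It was 0.04 without knockout replicate 4, 0.11 without wild-type replicate 4, 0.36 without knockout replicate 5 and 0.40 without wild-type replicate 3. Its density, 35.5 counts per kb, was below the median of the table. Changes within that interval are not excluded at this depth.

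Summed over all 25 regions, H60c stood at 895, 963 and 1012 CPM in wild types and at 1160, 1095 and 1215 in knockouts. These CPM use the scaling of the gene-sum fit, so neither they nor their log2 change are directly comparable with the region CPM above. The groups did not overlap. The log2 change was 0.27 (SE 0.07, 95% interval 0.14 to 0.40), and the edgeR adjusted p was 0.164 over 15265 gene sums, of which 0.0393% passed. By unadjusted p (8.61e-05) H60c ranked 8 of these sums. Limma-voom passed it (log2 change 0.27, adjusted p = 0.00437), where it passed 0.0459% of gene sums, and so did edgeR scaled to library totals (0.28, adjusted p = 0.00683) and edgeR without knockout replicate 4 (0.26, adjusted p = 0.0363). DESeq2 did not (adjusted p = 0.084). Nor did edgeR without any other single library, with adjusted p = 0.232 without wild-type replicate 8 and 0.999 without wild-type replicate 4. The call was unchanged in 13 of 16 alternatives. The sum is in the main a measure of the 3 strong regions, and with promoter, exon, intron and UTR regions alone it was the single gene region.

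In bins of 100 kb, whose CPM use the scaling of their own fit, the bin from 3.1 to 3.2 Mb held 15 of the H60c regions. It stood at 902 ± 71.5 CPM in wild types and 1102 ± 55.7 in knockouts (SD, n = 3; log2 change 0.29, SE 0.14, edgeR adjusted p = 1.00), with all knockouts above all wild types. The next bin, from 3.2 to 3.3 Mb, which holds the gene, stood at 42.4 ± 3.18 and 42.4 ± 2.94 CPM (log2 change 0.00, SE 0.14). The bin from 3.3 to 3.4 Mb had 1 H60c region and stood at 21.8 ± 2.66 and 22.5 ± 5.23 CPM (log2 change 0.05, SE 0.21). None of the 3 bins passed, where 0.058% of all bins did.

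The 3 strong regions were set beside other strong regions. In the nuclear genome 86 other regions had a mean count of at least 750.2, that of the weakest of the 3. Their log2 changes lay between -0.42 and 0.16 (median -0.04), and 61 of the 86 were negative. That split rested on single libraries, with 26 negative without knockout replicate 7 and 34 without wild-type replicate 4. Nor are the 86 separate cases, since many adjoin, such as those assigned to Sfi1 on chromosome 11 and to Scaf8 on chromosome 17. In 0 of the 86 was a positive change as large as 0.30, the smallest of the 3 H60c regions, and the same count of 0 was found in each of the 6 fits without 1 library, against the smallest H60c change of that fit. In size, 1 negative change was larger than those at H60c. This region, assigned to Fgf14, held 988, 867 and 829 counts in wild types and 711, 607 and 585 in knockouts (log2 change -0.42, edgeR adjusted p = 0.998). All knockouts lay below all wild types in it and in a region assigned to Asmt (-0.19). They lay above in 2 of the 86, assigned to A630089N07Rik (log2 change 0.16) and Actr3b (0.11).

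As a percentage of those 86 regions, the 3 H60c regions held 0.816, 0.846 and 0.943 in wild types and 0.995, 1.01 and 1.28 in knockouts. The groups did not overlap (log2 change 0.34, exact permutation p = 0.10, the smallest possible). Knockout replicate 7 stood highest. It had the lowest level over the other strong regions, 97127 CPM against 102705 to 114123 in the other libraries, and the highest at H60c. Without it the log2 change was 0.21. This comparison, too, was chosen after the values were seen. The summed level of the 86 is weighted to the strongest of them. A region assigned to Tcp10c had a mean count of 96106, and a region assigned to Gm10800 had 85285.

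**Figure D4:**
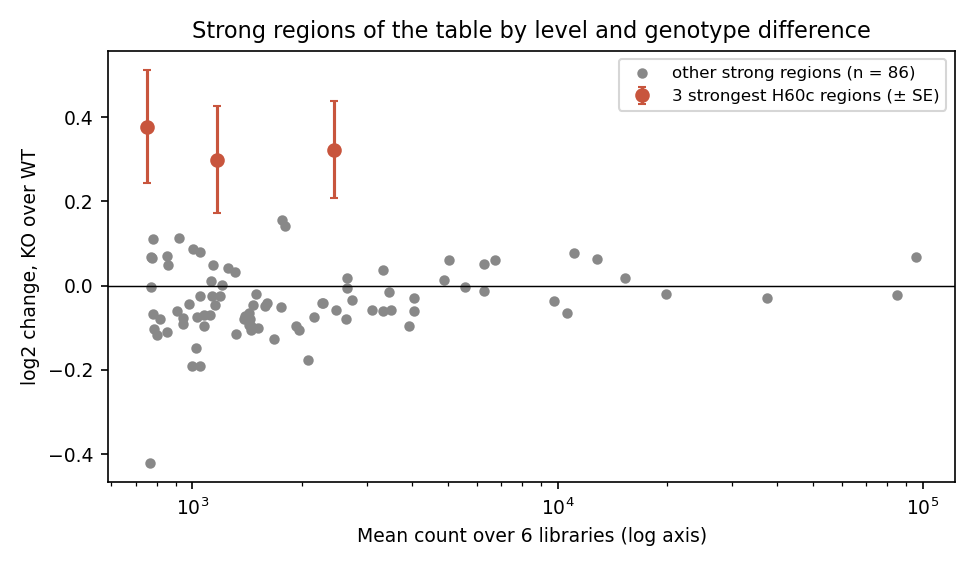
Fitted log2 change (Prr14-KO over Prr14-WT) against mean count over the 6 libraries (log axis) for the 3 H60c regions (± SE) and the 86 other nuclear regions at least as strong. The 3 H60c regions are the highest on the vertical axis, and the others lie between -0.42 and 0.16.

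Regions of nearly the same level overlapped between the genotypes. The second H60c region stood at 521 ± 59.0 CPM in wild types and 652 ± 37.1 in knockouts (SD, n = 3). Just above it in level, a region assigned to Sfi1 on chromosome 11, at 3159619, stood at 647 ± 49.6 and 612 ± 34.3 (log2 change -0.08), and one assigned to Scaf8 on chromosome 17, at 3029701, at 602 ± 60.03 and 578 ± 54.9 (-0.06). Just below it, a Gm17535 region on chromosome 9, at 3034797, stood at 552 ± 44.3 and 536 ± 77.2 (-0.04). The next, an Sfi1 region at 3192898, stood at 546 ± 59.3 and 531 ± 49.3 (-0.04). All 4 lie near the start of their chromosome, as the H60c regions do. They fall outside the 20000 bp windows compared next, which begin at 3100408 on chromosome 11, 3006429 on chromosome 17 and 3000117 on chromosome 9.

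The starts of chromosomes were therefore set side by side, over the first 20000 bp from each chromosome's first region. On chromosome 10 this window holds the 3 strong H60c regions and nothing else. At 928 CPM in wild types it ranked 4 among the 20 chromosomes compared (autosomes and X), after chromosomes 9, 17 and 4. In 8 chromosomes the window held at least 100 CPM. Chromosome 10 was the single one of these 8 with a positive log2 change (0.33), and the 7 others lay between -0.16 and -0.003. This count rested on single libraries: 7 of the 8 were positive without knockout replicate 7, and 6 without wild-type replicate 4. Without each library in turn, chromosome 10 had the largest change of the 8, at 0.26 to 0.39, beside at most 0.13 at the others. At each of the 7 other chromosome starts, knockout replicate 7 was the lowest library, while at chromosome 10 it was the highest. In the weaker windows, under 100 CPM in wild types, changes had both signs, from -0.72 (chromosome 14) to 0.81 (chromosome 8). On chromosome 6, one of these weaker windows, all knockouts lay below all wild types (log2 change -0.38).

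**Figure D5:**
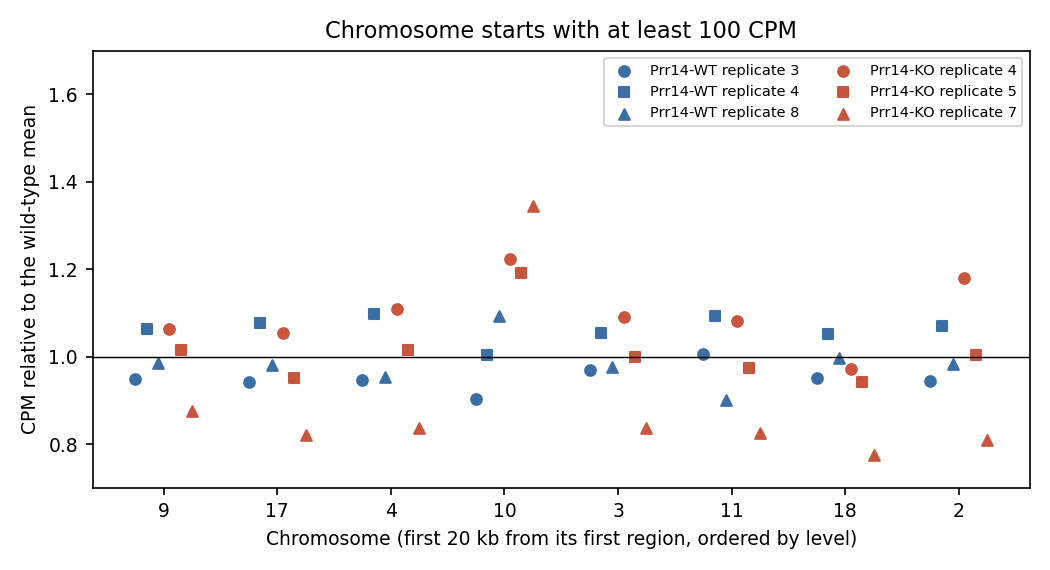
Counts in the first 20000 bp of regions on each of 8 chromosomes, as CPM relative to the wild-type mean of that chromosome, one point per library. At chromosome 10 all knockout points lie above all wild-type points and replicate 7 is the highest, while it is the lowest at the other 7.

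On the far side of the locus, 42 regions assigned to other symbols lay within 500 kb. They summed to 125 ± 4.36 CPM in wild types and 135 ± 13.0 in knockouts (SD, n = 3), a log2 change of 0.11 (exact permutation p = 0.30), and the groups overlapped. It was 0.04 without knockout replicate 5 and 0.18 without knockout replicate 4. With 100 kb on each side the change was -0.03 (exact permutation p = 0.90). The symbols were Iyd, which encodes the iodotyrosine deiodinase (19 regions, 65.7 CPM), Ppp1r14c, an inhibitor of protein phosphatase 1 (14 regions, 41.7 CPM), and Plekhg1 (9 regions, 22.7 CPM). Their gene sums had log2 changes of 0.03, 0.10 and 0.05 (edgeR adjusted p = 1.00 each). These sums take every region of a symbol, also any beyond 500 kb, on the scaling of the gene-sum fit. They are therefore not parts of the flank sum. The highest mean of a region in this flank was 10.9 CPM.

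Other genes of the NKG2D system did not pass the test. Of 12 genes listed, 7 had regions and 5 had enough counts to be tested, and 0 rose and 0 fell by the edgeR test over gene sums. Without adjustment H60c alone, 1 of the 5, had a p under 0.05, as 3.58% of all gene sums did. The median log2 change of the 5 was 0.27, or 0.18 without H60c, beside 0.00 over all gene sums.

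H60b, the other H60 gene with regions, had 4 regions with 57, 56 and 38 counts in wild types and 37, 44 and 31 in knockouts. The groups overlapped (log2 change -0.37, SE 0.31, edgeR adjusted p = 1.00). Raet1d, which encodes the Rae-1 delta ligand, had 6 regions with 191, 227 and 173 counts against 272, 193 and 222 (log2 change 0.27, SE 0.15, edgeR adjusted p = 1.00). Ulbp1, which encodes the ligand MULT1, had 16 regions with 402, 366 and 318 counts against 376, 371 and 357 (log2 change 0.08, SE 0.12, edgeR adjusted p = 1.00). Both overlapped between genotypes. Per kb of region, these genes held 48.5 (H60b), 75.1 (Raet1d) and 41.7 (Ulbp1) counts, beside 35.5 for the region in the H60c gene and a median of 46.3 over the table. The H60c set with its 3 distant strong regions, chosen for their level, held 330.

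The adaptor gene Tyrobp had 1 intergenic region with 5, 18 and 11 counts in wild types and 31, 23 and 14 in knockouts (log2 change 1.04, SE 0.57, edgeR adjusted p = 1.00). Raet1e and the receptor gene Klrk1 had 1 region each, with at most 17 and 11 counts in a library, and were not tested. No region carried the symbols H60a, Raet1a, Raet1b, Raet1c or Hcst. Of these only Hcst is in the RefSeq annotation used here. For the others, the lack of a region does not show that the mark is absent. By the table's annotation, none of the regions assigned to the 7 genes lay within 1 kb of a start site.

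In its sum H60c ranked 78 of 16587 symbols, between Tbl1xr1 (1060 CPM over 232 regions) and Csmd1 (1044 CPM over 222 regions), with 1057 CPM over 25 regions. Next to these stood Hace1 (1068 CPM, 235 regions) and Cdh6 (1037 CPM, 238 regions). The edgeR log2 changes of the 4 lay between -0.03 and 0.04. By counts per kb of region it ranked 44, between Gm29554 (334) and Gfra1 (329), with Gm14496 (352) and Olfr161 (327) next to them. None of these 8 symbols passed the test.

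Of 6895 symbols with a mean sum of at least 100 counts, those whose log2 CPM followed that of H60c most closely over the 6 libraries were Tigit (Pearson r = 0.982), Gm20918 (0.976), Nr1d2 (0.969), Ccnd1 (0.950) and P3h2 (0.937). These correlations are a description, since the points share library depth and genotype and the 5 were picked as the highest. Their sums were 28.4 to 69.1 CPM, far below H60c, and none passed the edgeR test (log2 changes 0.20 to 0.43, adjusted p = 1.00 each).

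Libraries held 4324444 to 4756133 counts, of which the 25 regions took 0.0876% to 0.102% in wild types and 0.110% to 0.123% in knockouts. The labels name no spike-in, so a change shared by all regions is scaled away. In tissue samples more cells with the mark and more mark per cell cannot be told apart. None of the 6 libraries is labelled as a control without the H3K9me3 antibody, and the repeat content of the strong regions was not examined. Whether sequence copy number or reads that match several places contribute to their counts was not tested. A mark of silent chromatin does not check a tissue label by expression. Regions within 1 kb of a start site were present for 4 of 15 muscle fibre genes (Acta1, Atp2a1, Ryr1 and Des) and 2 of 7 natural killer and T cell genes (Cd3d and Prf1).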

How the data were processed

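Per the submitters' processing notes, DESeq2 1.6.3, MACS2, BWA, bedtools, deepTools and Trimmomatic were used with GRCm38. Settings, the treatment of reads that match several places, and pooling of libraries for region calling are not given in the sources used here. Per the file headers and values, the deposited columns are whole-number counts per region. The authors also deposited a normalised signal (the count times 1 factor per library), a log2 fold change, p-values with adjusted p-values, and a score of unstated meaning, which was not used. Widths are end minus start plus 1.

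Groups followed the genotype labels. Counts of all regions, of sums per symbol and of bins of 100 kb were fitted with edgeR 4.0.16 in R 4.3.3: filterByExpr (minimum count 10, total 15), TMM, robust quasi-likelihood test, Benjamini-Hochberg adjustment over all features tested, threshold 0.05. Standard errors are the log2 change over the root of F, and 95% intervals are 1.96 SE. Single values had an exact permutation test (two-sided, 20 arrangements). CPM of regions use the TMM factors of the regions tested, and gene sums and bins those of their own fit. The fits were tested on simulated data. Alternatives included DESeq2 1.42.0 and voom in limma 3.58.1.

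The regions, lists and tests were chosen with earlier results of these data known. Named were all H60c regions, the NKG2D list, flanking symbols, those adjacent in level, and the 5 closest in log2 CPM (prior count 2). The other strong regions and chromosome starts were added after values were seen. RefSeq spans and the promoter are of GRCm38.p6.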

Additional observations from a re-analysis of the deposited data

How the results depend on the processing

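No paired analysis was possible because the genotypes share only replicate number 4. The count of H60c regions passed was 0 under 15 of 16 alternatives and 1 with limma-voom. That of 100 kb bins was 0 in all 16. The count of NKG2D gene sums passed was 0, and 1 (H60c) with library totals, limma-voom or without knockout replicate 4 (0 to 1 over left-out libraries). The H60c gene sum kept a positive log2 change in 16 alternatives (0.21 to 0.31), passing with library totals (0.28), limma-voom (0.27) and without knockout replicate 4; over left-out libraries it ran from 0.23 to 0.31 (edgeR adjusted p = 0.0363 to 1.00). The flank reversed, to -0.034, with 100 kb on each side. The cause of these shifts was not tested. Without each library in turn, the sum of the 3 strong regions had log2 changes of 0.26 to 0.39 and their ratio to other strong regions 0.21 to 0.40. With 3 libraries per genotype, a difference of this size at a single region did not pass with edgeR.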
